A study of Mus musculus with 24 samples.

Results

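Complement is a protein cascade that tags debris, microbes and, in brain, synapses for removal. In its classical arm C1q binds the target, C4 and C2 are cleaved and C3 is split, and in the alternative arm factor B builds the enzyme that splits further C3. The small fragments C3a and C5a act through receptors on myeloid cells, and the large C3 fragment left on the target is taken up through complement receptor 3, the integrin of CD11b and CD18. Microglia are the main source of C1q in the brain and carry these receptors.

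The 9 genes described here were chosen by name from the gene table of 55487 identifiers: C1qa, C1qb and C1qc (the chains of C1q), C3, C4b and Cfb (factor B), the receptor genes C3ar1 and C5ar1, and Itgam (CD11b). All 9 passed the filter on low counts and were tested, as were 31 of 49 other complement genes listed beside them. Male mouse offspring of 8 to 10 weeks, whose dams had undergone maternal immune activation (MIA) or were controls, were given lipopolysaccharide (LPS, a bacterial wall component, 4500 EU/g into the peritoneum) or saline and studied 18 h later. Striatum and frontal cortex were dissociated with papain, and CD11b-positive cells were taken on magnetic beads, so the product of Itgam was itself the handle of the sort. The 8 groups were MIA striatum LPS, MIA striatum saline, control striatum LPS, control striatum saline, MIA cortex LPS, MIA cortex saline, control cortex LPS and control cortex saline. Each had 3 libraries, and replicate 3 of MIA striatum LPS, which its title marks as excluded, was set aside, so that 23 libraries remained. The agent given to the dams, the strain and the litters are not given in the sources used here, and MIA therefore cannot be told apart from litter. Levels are CPM, counts scaled to a common library total, changes are log2 fold changes with their standard error (SE), and calls rest on an adjusted p under 0.05 (edgeR quasi-likelihood test, Benjamini-Hochberg over 17139 genes).

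The stretch from 250 bases before to 50 bases after the start of the gene was in the RefSeq promoter table (GRCm38.p6) for 6 of the 9 genes: C1qb, C1qc, C3, C3ar1, C5ar1 and Itgam. C1qa, C4b and Cfb had no entry. Shown are the neighbours C1qb and C1qc, whose responses to LPS are given separately in the results, and C3, C3ar1 and C5ar1, which rose in all 4 LPS comparisons. Each is written 5′ to 3′ on the strand of its gene, and capitals mark a match to 1 of 4 motifs.
C1qb, chr4:136886151-136886450, minus strand: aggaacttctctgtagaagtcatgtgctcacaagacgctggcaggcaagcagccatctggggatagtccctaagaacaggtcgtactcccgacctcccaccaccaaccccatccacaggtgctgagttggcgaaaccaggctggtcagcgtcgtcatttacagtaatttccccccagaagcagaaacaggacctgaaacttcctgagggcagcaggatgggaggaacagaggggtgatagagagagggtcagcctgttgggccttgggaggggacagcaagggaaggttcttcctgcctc
C1qc, chr4:136892865-136893164, minus strand: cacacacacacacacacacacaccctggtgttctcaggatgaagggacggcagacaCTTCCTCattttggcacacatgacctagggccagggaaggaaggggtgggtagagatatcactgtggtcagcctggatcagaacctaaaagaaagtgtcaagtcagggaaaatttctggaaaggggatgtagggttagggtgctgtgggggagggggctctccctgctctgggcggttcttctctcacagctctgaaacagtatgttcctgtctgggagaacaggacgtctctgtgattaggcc
C3, chr17:57228087-57228386, minus strand: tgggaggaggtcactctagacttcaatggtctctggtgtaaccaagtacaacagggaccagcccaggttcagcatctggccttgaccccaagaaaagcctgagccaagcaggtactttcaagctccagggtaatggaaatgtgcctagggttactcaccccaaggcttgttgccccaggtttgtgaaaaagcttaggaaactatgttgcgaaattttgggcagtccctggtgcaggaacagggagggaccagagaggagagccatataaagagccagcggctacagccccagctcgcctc
C3ar1, chr6:122856108-122856407, minus strand: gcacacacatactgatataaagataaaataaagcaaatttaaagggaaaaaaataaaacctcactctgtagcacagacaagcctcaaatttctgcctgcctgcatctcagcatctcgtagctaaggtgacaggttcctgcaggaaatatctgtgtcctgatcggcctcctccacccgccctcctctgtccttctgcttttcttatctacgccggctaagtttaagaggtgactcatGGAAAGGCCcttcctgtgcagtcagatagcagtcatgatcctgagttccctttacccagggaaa
C5ar1, chr7:16259289-16259588, minus strand: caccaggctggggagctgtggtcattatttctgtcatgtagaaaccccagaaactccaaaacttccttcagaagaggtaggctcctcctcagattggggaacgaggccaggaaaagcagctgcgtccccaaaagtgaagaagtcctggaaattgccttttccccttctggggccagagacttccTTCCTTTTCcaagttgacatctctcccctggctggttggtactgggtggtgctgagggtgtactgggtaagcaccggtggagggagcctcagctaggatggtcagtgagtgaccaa

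The motifs searched on both strands were GGNNTTTCC (the kappaB type of NF-kappaB sites), GAAANNGAA (the type bound by interferon regulatory factors), TTCNNNGAA (the type bound by STAT proteins) and GAGGAAG (the type bound by the myeloid factor PU.1). Of 32851 promoters in the table, 5.82% held the first, 8.56% the second, 8.30% the third and 13.6% the fourth. C1qc held the PU.1-type motif on its minus strand from base -194 (CTTCCTC as printed), and Itgam held it from base -84 on the plus strand and from base 31 on the minus strand. C3ar1 held the kappaB-type motif on the minus strand from base -14 (GGAAAGGCC). C5ar1 held the interferon-type motif on the minus strand from base -66 (TTCCTTTTC). C1qb and C3 held none of the 4 in this window. A match is a match of letters and not a measured site.

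The libraries used held 19453295 to 29480499 counts. The defining microglial genes P2ry12, Tmem119 and Sall1 were present in every group, and the summed level of 14 microglial markers was 35693 to 49282 CPM in the 11 LPS libraries and 58604 to 76617 CPM in the 12 saline libraries. Neutrophil markers (15 genes) summed to 792 to 1602 CPM after LPS and 300 to 1076 CPM after saline, and monocyte markers (13 genes) to 481 to 1309 CPM after LPS and 581 to 1074 CPM after saline. Border macrophage markers (12 genes) summed to 896 to 2173 CPM after LPS and 683 to 1667 CPM after saline. Astrocyte markers (12 genes) ran from 297 to 1188 CPM after LPS and 525 to 1141 CPM after saline. By the test, 8 of the 13 monocyte markers were higher after LPS in MIA striatum and 7 in control striatum. MIA cortex had 2 higher and control cortex 7, and none was lower in any pair. Of the 15 neutrophil markers 7, 9, 2 and 7 were higher in the same order, with 2 lower in MIA cortex. Of the 12 border macrophage markers 7 were higher in MIA striatum and 2 in control striatum, with none higher in cortex and 1 lower in each pair other than MIA striatum. The monocyte marker Ly6c2 was at 8.28 to 42.5 CPM in control striatum LPS and 0.536 to 0.894 CPM in control striatum saline, while Ccr2, another, was at 3.11 to 10.8 CPM in the LPS libraries and 2.13 to 7.02 CPM in the saline libraries of that pair. The neutrophil marker Ly6g was at 0 in 6 of the 12 saline libraries and in no LPS library, and Camp, another, was at 0.729 to 1.98 CPM in MIA cortex LPS and 9.52 to 44.9 CPM in MIA cortex saline. MIA cortex saline replicate 1 had the highest neutrophil sum of the saline libraries, 1076 CPM against 565 and 606 CPM in the rest of its group. MIA cortex LPS replicate 3 had a neuron marker sum of 261 CPM against 27.9 and 23.2 CPM. The part of these other cells in the results below was not tested.

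LPS raised C3, C4b, Cfb, C3ar1 and C5ar1 in both regions of both prenatal groups. C1qa and C1qb rose in control striatum and control cortex, C1qc passed in no group, and Itgam fell in control striatum. In MIA striatum 5 of the 9 genes were called higher, against 6.93% of all genes tested, and none was called lower (3.31% of all genes). Control striatum had 7 called higher (12.7% of all genes) and 1 called lower (8.15%). MIA cortex had 5 called higher (7.05% of all genes) and none lower (4.85%), and control cortex had 7 called higher (10.9%) and none lower (7.25%). The median log2 fold change of the 9 genes was 0.94 in MIA striatum and 1.15 in control striatum, and 0.78 in MIA cortex and 0.99 in control cortex, where all genes tested had medians of -0.06, -0.02, 0.01 and 0.04 in the same order. Some monocyte and neutrophil markers also rose in each of these comparisons, in the numbers given above, and their part in the rises was not tested. The libraries are bulk samples, so more cells of a type and more RNA per cell cannot be told apart.

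**Figure D1:**
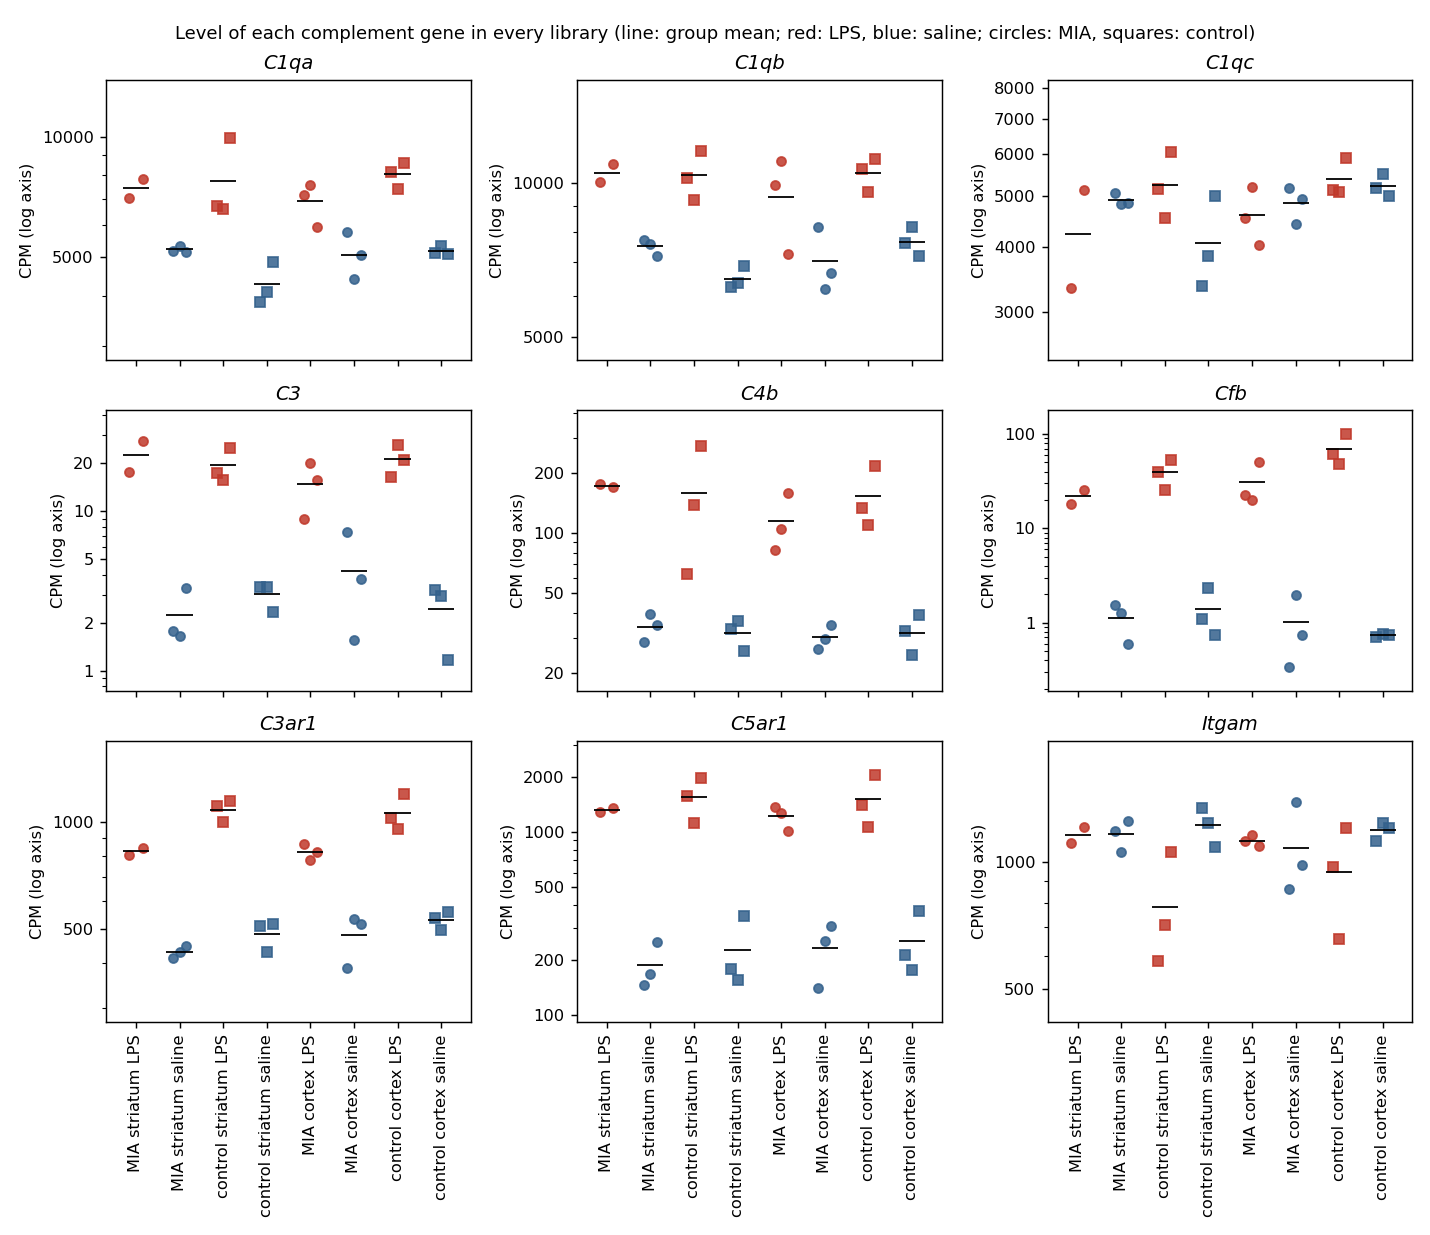
Level of each of the 9 genes in every library, in CPM on a log axis, with the 8 groups along the x axis and a line at each group mean. LPS libraries (red) lie above all saline libraries (blue) for C1qa, C3, C4b, Cfb, C3ar1 and C5ar1, and overlap them for C1qb, C1qc and Itgam. The share of all genes that separate like this is not given here.

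C1q is built of equal numbers of its A, B and C chains, whose genes stand side by side on chromosome 4 (GRCm38, GENCODE M21): C1qa at chr4:136895917-136898803, C1qb at chr4:136880129-136886187 and C1qc at chr4:136889804-136893065, all on the minus strand. The 3 genes together took 1.72% to 2.75% of the scaled counts in the LPS libraries and 1.35% to 1.91% in the saline libraries. Per kilobase of merged exon, the mean level in control cortex LPS was 9609 CPM for C1qb, 7738 CPM for C1qa and 2782 CPM for C1qc. In control cortex saline it was 7051 CPM per kilobase for C1qb, 4986 for C1qa and 2707 for C1qc. In all 8 groups C1qb had the highest and C1qc the lowest mean per kilobase.

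C1qa was at 7037 and 7850 CPM in MIA striatum LPS, against 5186, 5345 and 5161 CPM in MIA striatum saline. In control striatum C1qa was at 6701, 6584 and 9917 CPM after LPS, against 3867, 4091 and 4876 CPM after saline. The LPS libraries lay above the saline libraries in both prenatal groups, with replicate 3 highest in control striatum LPS. In MIA cortex C1qa was at 7160, 7590 and 5932 CPM after LPS, against 5765, 4403 and 5055 CPM after saline. Control cortex held 8173, 7382 and 8589 CPM after LPS, against 5128, 5345 and 5083 CPM after saline. No LPS library reached down to a saline one, although in MIA cortex the lowest LPS library stood close to the highest saline library. On the log2 scale C1qa changed by 0.85 ± 0.16 in control striatum (adjusted p = 5.2e-04) and 0.63 ± 0.16 in control cortex (adjusted p = 0.0066). In MIA offspring the values were 0.51 ± 0.17 in striatum (adjusted p = 0.069) and 0.44 ± 0.16 in cortex (adjusted p = 0.075), which did not pass.

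C1qb averaged 10451 ± 589 CPM in MIA striatum LPS and 7511 ± 281 CPM in MIA striatum saline (SD, n = 2 and 3). In control striatum C1qb averaged 10334 ± 1161 CPM after LPS and 6500 ± 336 CPM after saline (SD, n = 3 each), and no libraries overlapped. In MIA cortex it was at 9913, 11013 and 7274 CPM after LPS, against 8203, 6198 and 6680 CPM after saline. MIA cortex LPS replicate 3, the library high in neuron markers, fell inside the range of the saline libraries. Control cortex had 10455 ± 768 CPM after LPS and 7672 ± 494 CPM after saline (SD, n = 3 each). C1qb passed in control striatum (log2 fold change 0.67 ± 0.15, adjusted p = 0.0026) and in control cortex (0.45 ± 0.15, adjusted p = 0.040). It did not pass in MIA striatum (0.48 ± 0.16, adjusted p = 0.072) or MIA cortex (0.42 ± 0.15, adjusted p = 0.073). Without MIA cortex LPS replicate 3 both genes passed in MIA cortex, C1qa with an adjusted p of 0.043 and C1qb with 0.0089, and without saline replicate 1 of that group C1qb passed with 0.038. In MIA striatum both genes passed with only the groups compared (adjusted p = 0.016 for C1qa and 0.019 for C1qb), with the excluded library added back (0.021 and 0.031) and with DESeq2 (0.038 and 0.027). Over all alternatives there the adjusted p ran from 0.016 to 0.54 for C1qa and from 0.019 to 0.5 for C1qb. Over all alternatives for MIA cortex the adjusted p of C1qa ran from 0.03 to 0.25 and that of C1qb from 0.0089 to 0.34. The control cortex call of C1qb was lost without LPS replicate 1 or 3 (adjusted p = 0.1 each) and without saline replicate 1, 2 or 3 (adjusted p = 0.1, 0.063 and 0.14), in a range over its alternatives from 0.0091 to 0.14.

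C1qc was at 3341 and 5133 CPM in MIA striatum LPS, against 5071, 4814 and 4835 CPM in MIA striatum saline. In control striatum C1qc was at 5151, 4533 and 6051 CPM after LPS, against 3369, 3846 and 4999 CPM after saline. In cortex it averaged 4586 ± 584 CPM in MIA LPS and 4839 ± 389 CPM in MIA saline, and 5371 ± 456 CPM in control LPS and 5226 ± 262 CPM in control saline (SD, n = 3 each). LPS and saline libraries overlapped in every one of these comparisons. For C1qc the log2 fold changes were -0.21 ± 0.19 in MIA striatum and 0.37 ± 0.17 in control striatum, and -0.08 ± 0.17 in MIA cortex and 0.04 ± 0.17 in control cortex, with adjusted p-values of 0.58, 0.13, 0.86 and 0.93. Without control striatum saline replicate 3, the highest of its group, C1qc passed in control striatum at 0.54 on the log2 scale (adjusted p = 0.028, in a range over its alternatives from 0.028 to 0.42).

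The chains can also be compared inside a library, where the scaling of the libraries drops out. The ratio of C1qa counts to C1qc counts had a lowest, median and highest value of 1.30, 1.47 and 2.11 in the 11 LPS libraries, against 0.97, 1.02 and 1.15 in the 12 saline libraries. Every LPS library was above every saline library. The ratio of C1qb to C1qc counts was 1.80, 2.04 and 3.00 after LPS, against 1.35, 1.49 and 1.86 after saline, with a small overlap. The mean log2 difference between LPS and saline was 0.58 for C1qa to C1qc and 0.48 for C1qb to C1qc, and it was positive in each of the 4 pairs of groups. An exact two-sided permutation test of LPS against saline within each prenatal group and region gave p = 1.3e-05 for each ratio. This is the smallest p that its 80000 assignments can give, and the adjusted p was 1.3e-05 over the 4 ratios tested. Striatum and cortex libraries were shuffled separately, although same-numbered ones may share an animal, which would make this p too small. These ratios are of counts and not of molecules, and they were picked after the values had been seen. For C1qa alone every LPS library was already above every saline library. The p of either ratio is therefore not separate support.

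**Figure D2:**
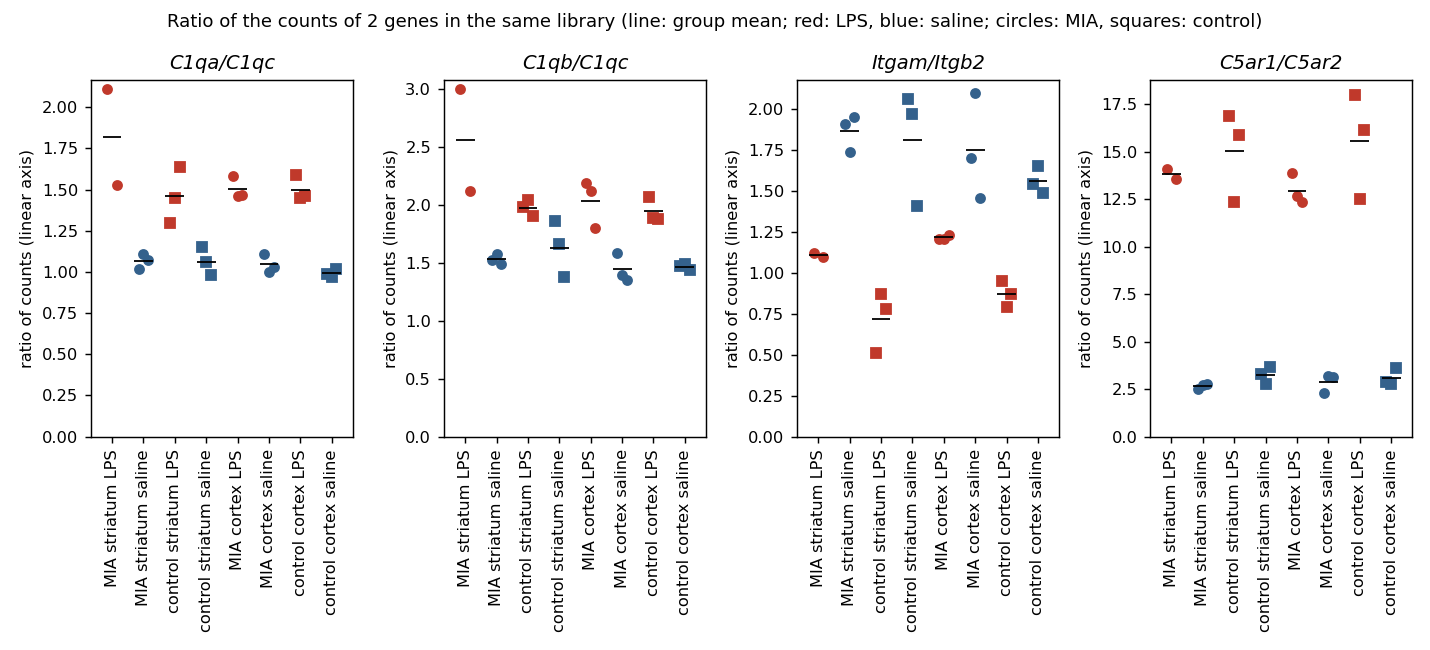
Ratio of the counts of 2 genes in the same library, on linear axes that start at 0, with the 8 groups along the x axis and a line at each group mean. LPS libraries lie above the saline libraries for C1qa to C1qc (1.30 to 2.11 against 0.97 to 1.15) and C5ar1 to C5ar2 (12.4 to 18.0 against 2.28 to 3.67), and below them for Itgam to Itgb2 (0.514 to 1.23 against 1.41 to 2.10).

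C3 is the central component that both arms cleave, and C4b encodes the C4 that C1-bound proteases split first. C3 (chr17:57203970-57228136) was low in all libraries. C3 was at 17.6 and 27.5 CPM in MIA striatum LPS, against 1.77, 1.66 and 3.30 CPM in MIA striatum saline. In control striatum C3 was at 17.5, 15.8 and 25.1 CPM after LPS, against 3.34, 3.36 and 2.35 CPM after saline. Striatal LPS libraries stood far from the saline ones in both prenatal groups. In MIA cortex C3 was at 8.9, 20.0 and 15.7 CPM after LPS, against 7.41, 1.56 and 3.75 CPM after saline. Control cortex held 16.4, 26.1 and 21.1 CPM after LPS, against 3.22, 2.94 and 1.17 CPM after saline. MIA cortex was the pair with the narrowest gap, and its highest saline library was replicate 1, the library with the highest neutrophil sum. LPS changed C3 on the log2 scale by 3.32 ± 0.51 in MIA striatum (adjusted p = 1.7e-04) and 2.69 ± 0.47 in control striatum (3.3e-04), and 1.81 ± 0.46 in MIA cortex (0.012) and 3.11 ± 0.49 in control cortex (1.0e-04). Without saline replicate 1 the MIA cortex value was 2.45, and without LPS replicate 2 it was 1.54 and did not pass (adjusted p = 0.061, in a range over its alternatives from 9.0e-04 to 0.099).

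C4b (chr17:34728380-34743882) was at 176 and 170 CPM in MIA striatum LPS, against 28.6, 39.3 and 34.6 CPM in MIA striatum saline. In control striatum C4b was at 62.2, 139 and 273 CPM after LPS, against 33.3, 36.4 and 25.8 CPM after saline. All LPS libraries were higher, but control striatum LPS spread widely around its mean. In MIA cortex C4b was at 82.8, 105 and 159 CPM after LPS, against 26.3, 29.5 and 34.7 CPM after saline. Control cortex held 133, 110 and 218 CPM after LPS, against 32.3, 24.5 and 38.9 CPM after saline. The 4 saline groups had nearly equal means, 30.2 to 34.2 CPM. For C4b the log2 fold change was 2.34 ± 0.40 in MIA striatum (adjusted p = 5.4e-04) and 2.31 ± 0.38 in control striatum (1.6e-04), and 1.94 ± 0.38 in MIA cortex (0.0014) and 2.27 ± 0.38 in control cortex (2.2e-04). Without control striatum LPS replicate 3 its value there was 1.66, still called. Astrocytes also express C4b in brain. The library with the highest astrocyte marker sum of its LPS group had the highest C4b in MIA striatum (replicate 1, 966 CPM) and MIA cortex (replicate 3, 1096 CPM), the lowest in control striatum (replicate 1, 1188 CPM) and the middle value in control cortex (replicate 1, 1096 CPM), and the part of astrocytes was not tested. The near-identical gene C4a stood at 0 to 0.774 CPM, and how shared reads were split between them was not tested.

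Factor B joins cleaved C3 to form the amplifying enzyme of the alternative arm, and its gene showed the largest log2 fold change of the 9 genes in all 4 LPS comparisons. Cfb (chr17:34856374-34862518) was at 18.3 and 25.8 CPM in MIA striatum LPS, against 1.55, 1.26 and 0.604 CPM in MIA striatum saline. In control striatum Cfb was at 39.6, 25.4 and 53.0 CPM after LPS, against 1.11, 2.34 and 0.737 CPM after saline. The saline libraries held only small counts of Cfb in both prenatal groups. In MIA cortex it was at 22.7, 19.9 and 50.3 CPM after LPS, against 0.337, 1.97 and 0.749 CPM after saline. In control cortex it was at 61.2, 48.2 and 100.0 CPM after LPS, against 0.711, 0.761 and 0.749 CPM after saline. Control cortex LPS had the highest mean, and MIA cortex LPS replicate 3 was the only MIA library inside its range. Cfb had a log2 fold change of 4.28 ± 0.57 in MIA striatum (adjusted p = 4.1e-05) and 4.82 ± 0.56 in control striatum (3.2e-06), and 4.93 ± 0.57 in MIA cortex (6.1e-06) and 6.55 ± 0.61 in control cortex (2.6e-07). Leaving out 1 library moved the value to 4.37 (MIA cortex, without LPS replicate 3), to 5.84 (MIA cortex, without saline replicate 2) or to 5.43 (control striatum, without saline replicate 2). A read-through gene that overlaps Cfb, Gm20547, stood at 0 to 1.17 CPM.

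C3ar1 encodes the C3a receptor and C5ar1 the main C5a receptor, both chemotactic receptors of myeloid cells. C3ar1 (chr6:122847138-122856161) was at 806 and 844 CPM in MIA striatum LPS, against 414, 430 and 448 CPM in MIA striatum saline. In control striatum C3ar1 was at 1103, 995 and 1141 CPM after LPS, against 510, 430 and 515 CPM after saline. The groups were tight and did not overlap. In MIA cortex C3ar1 was at 867, 782 and 821 CPM after LPS, against 387, 533 and 517 CPM after saline. In control cortex it was at 1021, 951 and 1192 CPM after LPS, against 536, 496 and 559 CPM after saline. Here too every LPS library exceeded every saline library. C3ar1 rose on the log2 scale by 0.94 ± 0.14 in MIA striatum (adjusted p = 1.5e-04) and 1.15 ± 0.13 in control striatum (2.5e-06), and 0.78 ± 0.13 in MIA cortex (3.2e-04) and 0.99 ± 0.13 in control cortex (1.6e-05).

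C5ar1 (chr7:16246743-16259540) was at 1292 and 1352 CPM in MIA striatum LPS, against 145, 167 and 249 CPM in MIA striatum saline. In control striatum C5ar1 was at 1568, 1124 and 1964 CPM after LPS, against 179, 155 and 348 CPM after saline. Replicate 3 was the highest library in both control striatum groups. In MIA cortex C5ar1 was at 1371, 1262 and 1014 CPM after LPS, against 140, 253 and 305 CPM after saline. In control cortex it was at 1397, 1065 and 2055 CPM after LPS, against 212, 175 and 369 CPM after saline. The lowest LPS library of the series, at 1014 CPM, was far over the highest saline library, at 369 CPM. C5ar1 rose on the log2 scale by 2.82 ± 0.39 in MIA striatum (adjusted p = 5.7e-05) and 2.77 ± 0.37 in control striatum (1.6e-05), and 2.39 ± 0.36 in MIA cortex (1.3e-04) and 2.58 ± 0.36 in control cortex (3.7e-05). Neutrophils also carry C5ar1, and their marker sums after LPS and saline are given above.

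C5ar2, the second C5a receptor, whose gene lies close to C5ar1, was not called after LPS in any group: 0.47 ± 0.28 in MIA striatum and 0.59 ± 0.25 in control striatum, and 0.24 ± 0.25 in MIA cortex and 0.28 ± 0.25 in control cortex, with adjusted p-values of 0.36, 0.10, 0.65 and 0.53. The ratio of C5ar1 to C5ar2 counts was 12.4, 13.9 and 18.0 (lowest, median, highest) in LPS libraries, against 2.28, 2.84 and 3.67 in saline libraries. These ranges were far apart, with a mean log2 difference of 2.27 (exact permutation test as above, p = 1.3e-05). For C5ar1 alone every LPS library was already above every saline library, and the ratio was picked after its values were seen. Its p is therefore not separate support. RSEM gave C5ar2 values that were not whole in 14 libraries, so part of its count depends on how shared reads were split.

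Itgam (chr7:128062640-128118491) was at 1111 and 1214 CPM in MIA striatum LPS, against 1186, 1057 and 1254 CPM in MIA striatum saline. In control striatum Itgam was at 583, 708 and 1056 CPM after LPS, against 1345, 1239 and 1084 CPM after saline. The MIA groups overlapped and the control groups did not, with replicate 3 after LPS close to replicate 3 after saline. In MIA cortex Itgam was at 1123, 1162 and 1090 CPM after LPS, against 862, 1389 and 986 CPM after saline. In control cortex it was at 972, 659 and 1204 CPM after LPS, against 1125, 1238 and 1203 CPM after saline. Both cortical pairs overlapped. For Itgam the log2 fold changes were 0.00 ± 0.24 in MIA striatum and -0.64 ± 0.21 in control striatum, and 0.06 ± 0.21 in MIA cortex and -0.33 ± 0.21 in control cortex, with adjusted p-values of 1, 0.036, 0.92 and 0.34. The control striatum call was lost without LPS replicate 1 (adjusted p = 0.16) or 2 (0.11) and without saline replicate 1 (0.12) or 2 (0.087), in a range over its alternatives from 0.0049 to 0.27. Itgam values were not whole in any of the 24 deposited libraries, and the gene Gm49368 overlaps it on the same strand at 3.79 to 11.6 CPM. Because cells were taken by CD11b, the Itgam level is that of cells that passed the sort.

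Itgb2 encodes CD18, the partner of CD11b in complement receptor 3. It rose after LPS in MIA striatum (0.75 ± 0.20, adjusted p = 0.017), control striatum (0.69 ± 0.18, adjusted p = 0.0091) and MIA cortex (0.59 ± 0.18, adjusted p = 0.036), and was not called in control cortex (0.50 ± 0.18, adjusted p = 0.057). All 11 LPS libraries, at 811 to 1389 CPM, were above all 12 saline libraries, at 508 to 807 CPM. The ratio of Itgam to Itgb2 counts was 0.514, 0.95 and 1.23 (lowest, median, highest) after LPS, against 1.41, 1.72 and 2.10 after saline, without overlap. Its mean log2 difference was -0.86 (exact permutation test as above, p = 1.3e-05) and was negative in each of the 4 pairs of groups. Itgb2 alone already separated LPS from saline libraries, and this ratio was also picked after its values were seen. Its p is therefore not separate support.

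**Figure D3:**
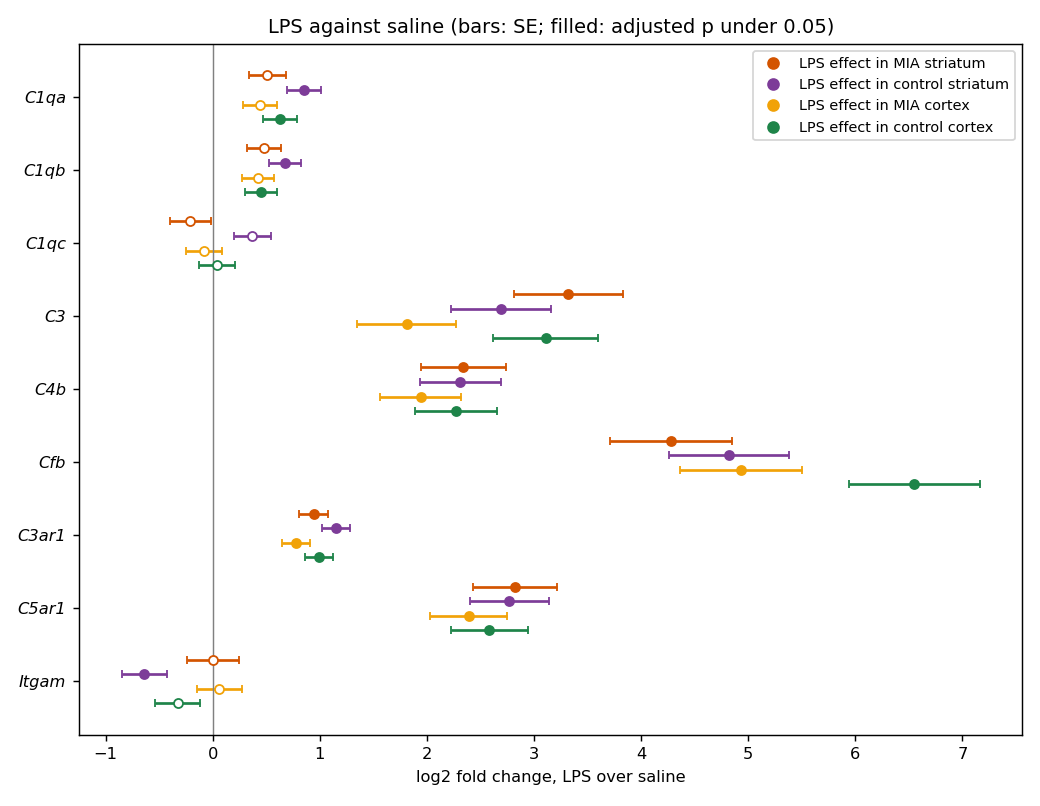
Log2 fold change of LPS over saline for each of the 9 genes (y axis) in the 4 pairs of groups (colours), with SE bars and filled points for an adjusted p under 0.05. Cfb lies farthest to the right, at 4.28 to 6.55, and C1qc and Itgam lie on both sides of 0.

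No difference between the LPS effects of MIA and control offspring, or of striatum and cortex, was called for any of the 9 genes. The share called over all genes was 0.0% for the MIA by LPS interaction in striatum and in cortex and 0.0% for the LPS by region interaction in MIA and in control offspring. These shares are at the adjusted threshold, and the share of all genes at an unadjusted p under 0.05 is not given here. By edgeR's unadjusted p under 0.05, 1 of the 9 genes passed in each of these 4 comparisons, and DESeq2 called 0 in each. They were C1qc for MIA by LPS in striatum (-0.58 ± 0.25), Cfb for MIA by LPS in cortex (-1.62 ± 0.75), C3 for LPS by region in MIA (1.51 ± 0.67) and Cfb for LPS by region in control (-1.73 ± 0.74), with adjusted p-values of 0.63, 1, 1 and 0.85. A call in control offspring and none in MIA offspring, as for C1qa, C1qb and Itgam, is therefore not shown to differ between them.

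MIA offspring were next set against control offspring directly, and none of the 9 genes was called. The share called over all genes was 0.146% in striatum after LPS, 0.0% in cortex after LPS, 0.0% in striatum after saline and 0.0% in cortex after saline. By an unadjusted edgeR p under 0.05, 2 of the 9 genes passed in striatum after LPS, 2 in cortex after LPS and 0 in either region after saline. The share of all genes at that unadjusted threshold is not given here, so these counts have no background to be read against. DESeq2 called 0 of the 9 in all 4.

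The C3a receptor gene had a lower mean in MIA than in control offspring in both regions after LPS, without passing the test. C3ar1 averaged 825 ± 27.2 CPM in MIA striatum LPS and 1080 ± 75.9 CPM in control striatum LPS (SD, n = 2 and 3). In cortex it averaged 823 ± 42.8 CPM in MIA LPS and 1054 ± 124 CPM in control LPS (SD, n = 3 each). All 5 MIA libraries were below all 6 control libraries, and the share of all genes with such a separation is not given here. MIA over control gave -0.39 ± 0.15 on the log2 scale in striatum (unadjusted p = 0.015, adjusted p = 0.40) and -0.36 ± 0.13 in cortex (0.012 and 0.82), and neither passed over all genes. After saline C3ar1 was at -0.17 ± 0.13 in striatum and -0.15 ± 0.13 in cortex. C5ar1 also had the lower mean in MIA offspring throughout. After LPS it was at -0.23 ± 0.39 in striatum and -0.31 ± 0.34 in cortex. After saline C5ar1 averaged 187 CPM in MIA and 227 CPM in control striatum, and 233 CPM in MIA and 252 CPM in control cortex.

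Cfb averaged 22.0 ± 5.31 CPM in MIA striatum LPS and 39.3 ± 13.8 CPM in control striatum LPS, and 31.0 ± 16.8 CPM in MIA cortex LPS and 69.8 ± 27.0 CPM in control cortex LPS. Libraries of MIA and control offspring overlapped in both regions. The log2 fold change of MIA over control was -0.84 ± 0.53 in striatum (adjusted p = 0.68) and -1.17 ± 0.46 in cortex (unadjusted p = 0.020, adjusted p = 0.90). Itgam was higher in both MIA striatum LPS libraries than in any of the control striatum LPS libraries, at 0.57 ± 0.24 (unadjusted p = 0.025, adjusted p = 0.47). In cortex after LPS it was at 0.25 ± 0.21 with overlapping libraries. How many of all genes had no overlap in striatum after LPS is not given here.

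The ratio of Itgam to Itgb2 after LPS was 1.10 to 1.23 in the 5 MIA libraries and 0.514 to 0.95 in the 6 control libraries, without overlap. The mean log2 difference was 0.57, at 0.65 in striatum and 0.49 in cortex. An exact two-sided permutation test within region gave p = 0.010. The adjusted p over the 8 ratio comparisons of MIA with control was 0.08, so the difference did not pass. Striatum and cortex libraries were again shuffled separately, although same-numbered ones may share an animal. With the excluded MIA striatum LPS library added back, the difference was 0.21 (p = 0.65, exact permutation test). After saline the ratio was 1.46 to 2.10 in MIA libraries and 1.41 to 2.06 in control libraries (adjusted p = 0.47, exact permutation test). The other 6 comparisons of these ratios had adjusted p-values of 0.22 to 0.49 (exact permutation test).

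After saline, the log2 fold changes of MIA over control ran from -0.42 ± 0.47 (C3) to 0.29 ± 0.16 (C1qa) in striatum and from -0.15 ± 0.13 (C3ar1) to 0.79 ± 0.46 (C3) in cortex. In striatum C1qa was at 5186, 5345 and 5161 CPM in MIA saline, against 3867, 4091 and 4876 CPM in control saline, without overlap (adjusted p = 0.92). C1qb also did not overlap there, with 7198 to 7741 CPM in MIA saline and 6249 to 6882 CPM in control saline (0.21 ± 0.15, adjusted p = 0.92). No share of all genes without overlap is given here to read these 2 against. For C3 in cortex the higher MIA mean, 4.24 ± 2.95 CPM against 2.44 ± 1.11 CPM in control, rested on MIA replicate 1 at 7.41 CPM.

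**Figure D4:**
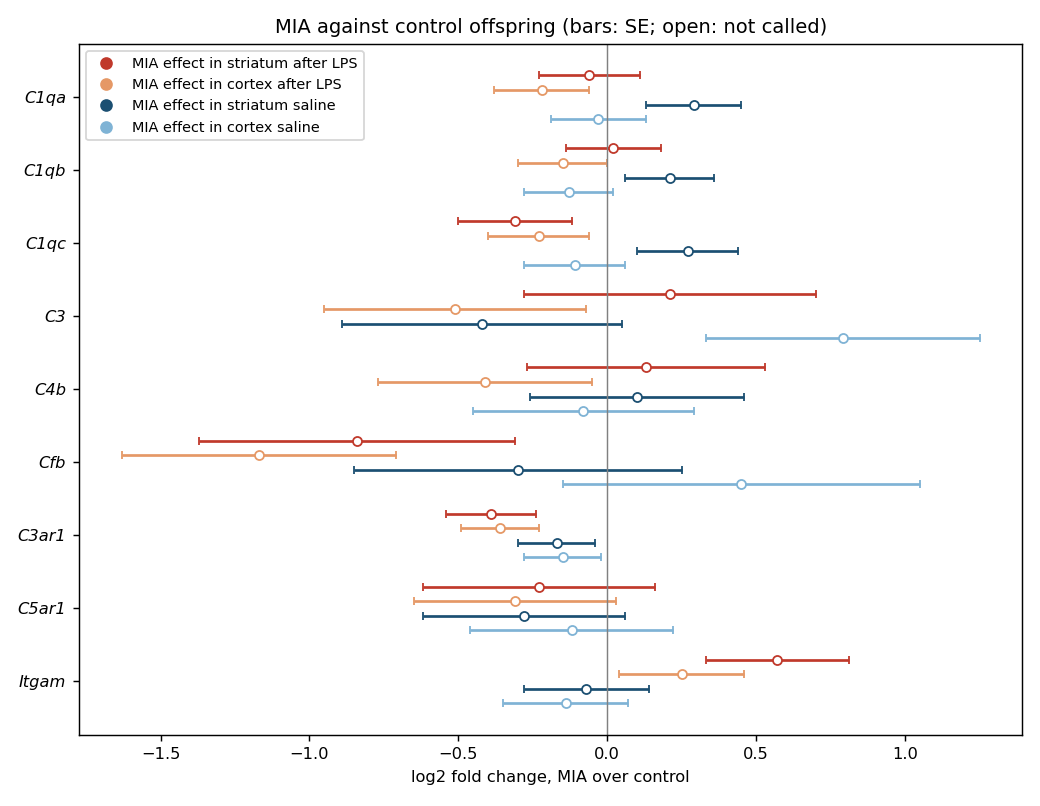
Log2 fold change of MIA over control offspring for each of the 9 genes (y axis) in striatum and cortex after LPS or saline (colours), with SE bars. No point is filled because none had an adjusted p under 0.05. C3ar1 lies left of 0 in all 4 comparisons, at -0.39, -0.36, -0.17 and -0.15, and so does C5ar1.

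Between the regions at rest, none of the 9 genes was called (0.0817% of all genes in MIA saline and 0.502% in control saline). Those shares are at the adjusted threshold, and none is given here for an unadjusted p. By an unadjusted edgeR p under 0.05, 0 passed in MIA and 1 in control offspring, and DESeq2 called 0 in both. That gene was C1qc, with 4071 ± 838 CPM in control striatum saline and 5226 ± 262 CPM in control cortex saline (SD, n = 3 each), a log2 difference of -0.36 ± 0.17 (adjusted p = 0.40). C1qa and C1qb were at -0.28 ± 0.16 and -0.24 ± 0.15 in the same comparison, with no overlap between striatum and cortex libraries. Again no share of all genes without overlap is given here. In MIA saline the same 3 genes were at 0.02 ± 0.17, 0.04 ± 0.16 and 0.10 ± 0.15 in the order C1qc, C1qa and C1qb. Oligodendrocyte markers summed to 1400 to 5632 CPM in control striatum saline and 299 to 510 CPM in control cortex saline, and their part in these values was not tested.

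Ranked by mean level, the 4 LPS groups came before the 4 saline groups for C1qa, C1qb, C3, C4b, Cfb, C3ar1 and C5ar1. The fourth LPS group and the highest saline group did not overlap for any of these except C1qb. The share of all genes whose LPS and saline libraries separate in this way is not given here. Among the LPS groups, neighbours in rank overlapped in all cases but one, C3ar1, where control cortex stood above MIA striatum without overlap. Neighbouring saline groups overlapped for all 9 genes. For C1qc and Itgam every pair of neighbours overlapped, and the groups did not sort by treatment.

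Other genes of the cascade were taken from a list of 49, of which 31 were tested. In MIA striatum 5 rose and 1 fell after LPS (6.93% and 3.31% of all genes), and in control striatum 6 rose and 4 fell (12.7% and 8.15%). In MIA cortex 6 rose and 0 fell (7.05% and 4.85%), and in control cortex 7 rose and 1 fell (10.9% and 7.25%). The 6 calls in MIA striatum were 3 without LPS replicate 1 or 2 or saline replicate 1 or 2, and the 10 in control striatum were 6 without LPS replicate 3. The 6 in MIA cortex were 3 without LPS replicate 2, and the 8 in control cortex were 5 without LPS replicate 1, 4 without saline replicate 1 and 5 without saline replicate 2 or 3. The list median of the log2 fold change was 0.26, 0.13, 0.12 and 0.50 in the same order. The genes that rose in all 4 comparisons were Cd55, Cfp, C1qbp and Calr.

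Cd55 encodes decay-accelerating factor, which breaks up the enzymes that split C3. It was at 12.5 and 24.0 CPM in MIA striatum LPS, against 2.12, 1.85 and 1.85 CPM in MIA striatum saline. Control striatum had 9.43, 6.86 and 8.05 CPM after LPS, against 0.725, 0.724 and 2.38 CPM after saline. No LPS library overlapped a saline one. Cortical Cd55 reached 33.8, 45.5 and 20.1 CPM in MIA LPS, against 1.85, 3.61 and 2.44 CPM in MIA saline, and 50.7, 27.4 and 26.8 CPM in control LPS, against 4.64, 3.20 and 3.60 CPM in control saline. The log2 fold change was 3.23 ± 0.45 in MIA striatum and 2.63 ± 0.43 in control striatum, and 3.65 ± 0.43 in MIA cortex and 3.19 ± 0.43 in control cortex, with adjusted p-values of 6.8e-05, 1.6e-04, 9.6e-06 and 1.9e-05.

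Cfp encodes properdin, which stabilises the factor B enzyme. It averaged 59.9 ± 16.1 CPM in MIA striatum LPS and 13.5 ± 1.88 CPM in MIA striatum saline (SD, n = 2 and 3). This rise was 2.14 ± 0.34 on the log2 scale (adjusted p = 2.1e-04). It was 1.42 ± 0.31 in control striatum (adjusted p = 0.0024), 1.30 ± 0.31 in MIA cortex (0.0070) and 1.32 ± 0.31 in control cortex (0.0043). C1qbp, a mostly mitochondrial protein first found as a binder of C1q, rose by 0.95 ± 0.16, 1.29 ± 0.15, 1.07 ± 0.15 and 1.15 ± 0.15 in MIA striatum, control striatum, MIA cortex and control cortex (adjusted p of 4.4e-04, 3.1e-06, 4.9e-05 and 1.3e-05). Calr, the chaperone calreticulin, which can also bind C1q, rose by 0.82 ± 0.23, 0.80 ± 0.21, 0.89 ± 0.21 and 0.85 ± 0.21 in the same order (adjusted p of 0.022, 0.0081, 0.0063 and 0.0058). Cr1l, which encodes the rodent C3 regulator Crry, rose in control striatum (0.64 ± 0.13, adjusted p = 0.0011) and control cortex (0.38 ± 0.13, adjusted p = 0.043), and did not pass in MIA striatum (0.26 ± 0.14, adjusted p = 0.31) or MIA cortex (0.38 ± 0.13, adjusted p = 0.056).

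Genes that fell were fewer. Masp1, a protease of the lectin arm, was lower in MIA striatum, at 1.27 and 0.669 CPM after LPS, against 5.80, 5.84 and 4.05 CPM after saline (-2.42 ± 0.77, adjusted p = 0.049). In control striatum Masp1, Colec12, Vtn and Susd4 were all lower. Vtn, which encodes vitronectin and is high in pericytes, was at 74.0, 74.8 and 75.6 CPM after LPS there, against 180, 181 and 113 CPM after saline (-1.08 ± 0.36, adjusted p = 0.037). Of 13 endothelial and pericyte markers, 8 were called lower in that comparison. The sum of the 13 was 1074 to 1452 CPM in control striatum LPS libraries and 1789 to 3503 CPM in control striatum saline libraries, and their part in the result was not tested.

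In the other comparisons 2 genes of this list were called. Colec12, a scavenger receptor of the collectin family, was higher in MIA striatum LPS, at 27.1 and 31.4 CPM, than in control striatum LPS, at 12, 7.29 and 9.86 CPM (1.59 ± 0.29, adjusted p = 0.031). The Colec12 call was lost when MIA striatum LPS replicate 1 or 2 or control striatum LPS replicate 2 was left out. Border macrophage markers summed to 1627 and 1994 CPM in MIA striatum LPS and 921, 896 and 1138 CPM in control striatum LPS. The part of these cells was not tested. Vtn was higher in control striatum saline, at 180, 181 and 113 CPM, than in control cortex saline, at 53.2, 42.3 and 40.6 CPM (1.80 ± 0.37, adjusted p = 0.032). The endothelial and pericyte marker sum was 1789 to 3503 CPM in control striatum saline and 738 to 1147 CPM in control cortex saline, and the pericyte marker Pdgfrb was at 20.8 to 48.3 CPM and 6.19 to 11.7 CPM in the same libraries. Their part was not tested. In that comparison same-numbered libraries deviated together. With a replicate block within prenatal and treatment group, 7 genes of the list were called in place of 1. The single call was lost when any one library of these groups other than control striatum saline replicate 3 was left out.

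**Figure D5:**
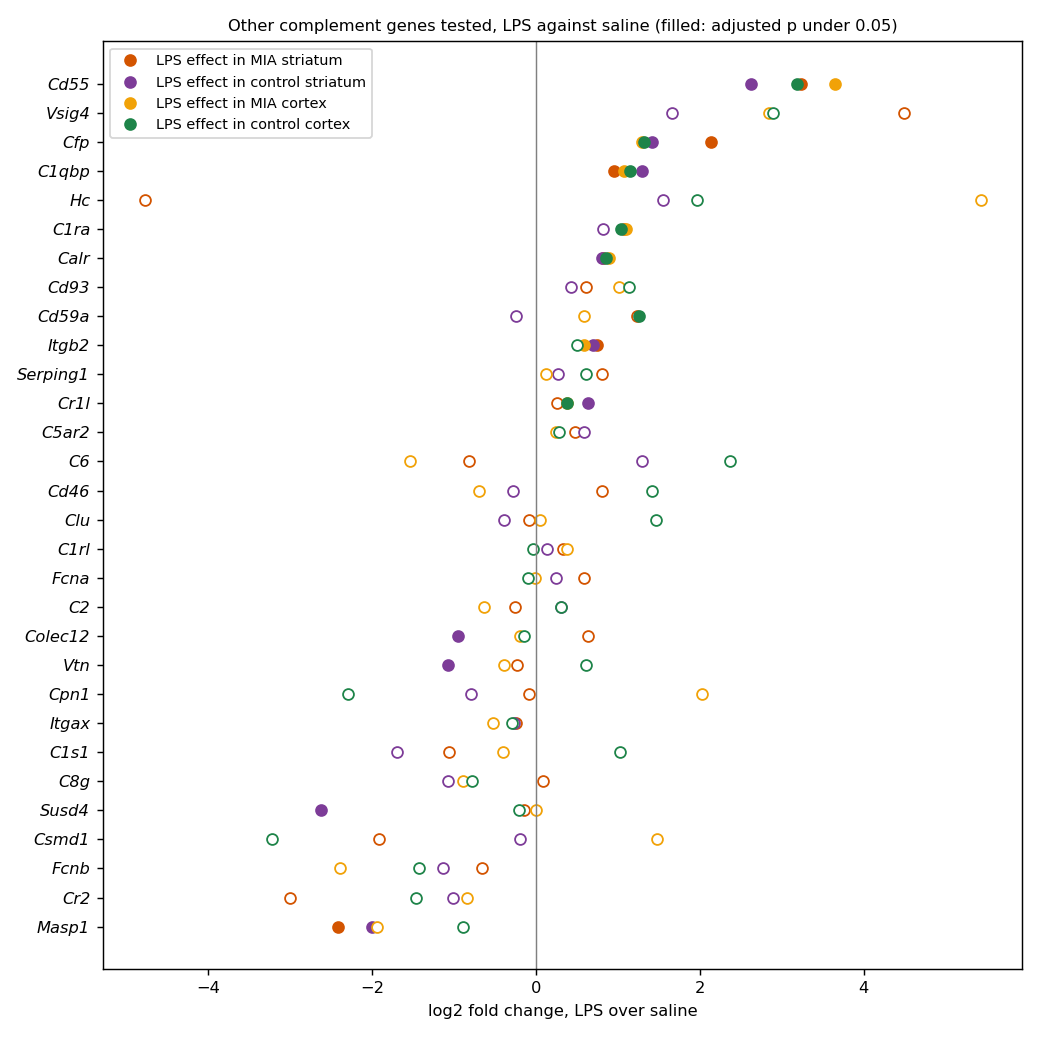
Log2 fold change of LPS over saline for 30 of the 31 other complement genes tested (y axis, ordered by their mean over the 4 pairs of groups), with filled points for an adjusted p under 0.05 and colours for the pairs of groups. Cd55, at 2.63 to 3.65, Cfp, C1qbp and Calr are filled in all 4. The open points farthest from 0, those of Hc and Vsig4, belong to genes with few counts.

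For each of the 9 genes the 3 genes whose log2 CPM ran most alike over the 23 libraries were named, with 10 CPM as the lowest mean level allowed. All libraries share the split into LPS and saline, so Pearson's r is given over all and then within the 11 LPS and the 12 saline libraries. C1qa ran with Ssr2 (0.96 over all, 0.92 in LPS, 0.86 in saline), Mydgf and Srprb (0.95 each), and C1qb with Apex1 (0.94), Alox5ap and Ptpn1 (0.93 each), with 0.66 to 0.95 for these 5 within LPS or saline libraries. C1qc was less alike to any gene, with Nsmce3 at 0.82 and Emc10 and Tm2d3 at 0.80, and 0.70 to 0.94 within either set. C3 ran with Lrg1, Lcn2 and Ldha at 0.94 over all, but the values for these 3 were 0.19 to 0.38 in LPS and 0.51 to 0.61 in saline libraries. C4b ran with Vars, Flna and AI506816 at 0.95 over all, but at 0.56 to 0.79 in LPS and 0.00 to 0.46 in saline libraries. Cfb ran with Spp1 (0.98 over all, 0.87 in LPS, 0.59 in saline) and with Ms4a4c and Milr1 (0.97 each over all, 0.90 and 0.65 in LPS, 0.43 and 0.39 in saline). C3ar1 ran with 1600014C10Rik (0.99), Ctsc and Tmem106a (0.98 each), and C5ar1 with Plet1, Ctsc and Cd300lf (0.98 each), with 0.77 to 0.92 in LPS and 0.66 to 0.95 in saline libraries. Itgam ran with Nckap1l (0.85), Sh3bp1 and Csf1r (0.84 each), at 0.85 to 0.92 in LPS and 0.57 to 0.79 in saline libraries.

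Among the 9 genes themselves, C3ar1 and C5ar1 ran together over all libraries (r = 0.97), in the LPS libraries (0.71) and in the saline libraries (0.76). C1qa and C1qb did so too, at 0.96, 0.83 and 0.88. C1qa and C1qc stood at 0.49 over all but at 0.71 in LPS and 0.92 in saline libraries. C3 and Cfb stood at 0.87 over all, 0.28 in LPS and -0.51 in saline libraries.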

How the data were processed

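Bulk RNA-seq libraries of CD11b-sorted cells were made from oligo-dT primed, Smart-Seq2 type cDNA, per the labels' protocols. The authors deposited expected counts per gene from RSEM after alignment with STAR, and used DESeq2, per the submitters' processing notes. Versions, genome build and strand setting are not given in the sources used here. Of the deposited values, 6.92% were not whole, and all were rounded before tests. Of 55487 identifiers, 55141 matched a symbol. RSEM splits reads between genes that share sequence, so such genes depend on that split. Smart-Seq2 type counts carry no molecular identifiers.

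In R 4.3.3, edgeR 4.0.16 kept genes by filterByExpr (minimum count 10, minimum total 15), scaled with TMM and fitted 1 term per group to 23 libraries (15 residual degrees of freedom). Two-sided quasi-likelihood tests gave 14 comparisons, each adjusted by Benjamini-Hochberg over 17139 genes and called at 0.05. The fit was tested on simulated data. CPM use TMM-scaled totals, and log2 CPM a prior count of 2. Coordinates and merged exons are from GENCODE M21 (GRCm38), which lists all 9 gene identifiers in the same version. Alternatives were DESeq2 1.42.0, RLE size factors, no filter on low counts, the excluded library added back, only the groups compared and leaving out each library. Further ones were a replicate block by number over all groups and, for region comparisons, a replicate block within prenatal and treatment group.

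Members and lists were chosen with earlier results of these data known. All 9 genes were named in every comparison. Of the other complement genes, counts were given, and by rule up to 4 called genes per comparison with the smallest adjusted p. Others were named after their values were seen: C5ar2 and Masp1, Calr in striatum, Itgb2 outside MIA striatum, Cr1l in control cortex, and Colec12, Vtn and Susd4 in control striatum after LPS. Of the 31 tested, 1 is in the counts and is not reported here by itself. Labels do not say that replicates are separate animals, so each p reflects only the spread among these libraries. Same-numbered libraries deviated together in the LPS effect in control cortex (correlations 0.12, 0.44 and 0.46) and in striatum minus cortex in control saline (0.33, 0.30 and 0.38), from the data and not from the labels. No other comparison had every pair over 0.1 in 3 pairs. Single pairs ran higher elsewhere. Striatum minus cortex in MIA saline had 0.45, -0.09 and 0.65, and the MIA effect in cortex saline had 0.21, -0.24 and 0.63, for replicates 1, 2 and 3.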

Additional observations from a re-analysis of the deposited data

Results flagged for a closer look

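The MIA striatum LPS library that its title marks as excluded was in no comparison. C1qa, C1qb, Cfb, C3ar1 and C5ar1 there lay above all 3 MIA striatum saline libraries. The share of all genes that did so is not given here. With all 24 libraries scaled together, C1qa was at 8187 CPM and C1qb at 10710 CPM, against highest saline values of 5339 and 7733 CPM. Cfb was at 47.5 CPM, C3ar1 at 834 CPM and C5ar1 at 1485 CPM, against highest saline values of 1.547, 447.2 and 248.5 CPM. C3 (3.244 CPM) and C4b (33.82 CPM) lay within the range of the saline libraries, while the MIA striatum LPS libraries that were used held 17.59 and 27.46 CPM of C3 and 175.7 and 169.5 CPM of C4b. Itgam was at 226.3 CPM, below both the LPS libraries used (1108 and 1212 CPM) and the saline libraries (1056 to 1252 CPM).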

How the results depend on the processing

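Of 1728 alternative values of the 9 genes, 1698 kept their status as called or not, 13 gained a call and 17 lost one. No called value changed sign. Values that were not called could change sign and still count among the 1698. For example, C1qc for LPS in MIA striatum ran from -0.61 to 0.04 over its alternatives. C1qa and C1qb gained calls in MIA striatum and MIA cortex with DESeq2, and in MIA striatum with only the groups compared (adjusted p = 0.016 and 0.019) and with the excluded library added back (0.021 and 0.031). With only the groups compared, C3 in MIA cortex (adjusted p = 0.099), C1qb in control cortex (0.12) and control striatum (0.053) and Itgam in control striatum (0.099) lost theirs. With the excluded library added back C3 in MIA cortex (0.057) and Itgam in control striatum (0.27) lost theirs, and without the filter on low counts C1qb in control cortex did (0.12). Counts of the other complement genes moved more. For LPS in control cortex they were 8, and 5 with RLE size factors, 4 with the excluded library and 5 with only the groups compared. For striatum minus cortex in control saline they were 1, and 4 with DESeq2, 4 without the filter, 0 with the excluded library, 2 with only the groups compared and 7 with the replicate block within prenatal and treatment group. For MIA saline the same difference gave 1 with DESeq2 and 1 with that replicate block, against 0. The MIA effect in striatum after LPS gave 0 with the excluded library and 0 with only the groups compared, against 1, and MIA by LPS in striatum gave 1 with DESeq2, against 0. Leaving out 1 library gave counts of 3 to 4 for LPS in MIA striatum, 6 to 10 in control striatum, 3 to 7 in MIA cortex and 4 to 7 in control cortex, 0 to 1 for MIA in striatum after LPS and 0 to 2 for striatum minus cortex in control saline. With the replicate block by number, C1qa was called in MIA striatum (adjusted p = 0.045), in a range over its alternatives from 0.016 to 0.54, and no other call of the 9 genes changed. The labels do not say whether that number pairs the samples there. The cause of these changes was not tested. Low counts limit C3 and Cfb in saline libraries.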
